A study of Mus musculus and Homo sapiens with 20 samples.

Results

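The data were H2AK119ub peak lists from mouse embryonic stem (mES) cells that were wild-type (WT) or knockout (KO) for Tet2, with 2 libraries per genotype, 4 of the 20 libraries of the series. They were made by CUT&Tag, in which an antibody brings a transposase to a chromatin mark and the enzyme tags the DNA around it. The other libraries profiled H3K27me3 in the same cells, both marks in WT and Tet2 KO bone marrow stem and progenitor cells (HSPCs), and H2AK119ub in human K562 cells. WT and Tet2 KO cells were grown alike, in medium with serum, LIF and the inhibitors CHIR99021 and PD0325901, and were cleared of feeder cells before they were profiled. Each genotype is a line given to the study, so genotype and line cannot be told apart. The study calls such libraries biological replicates of a line, and the labels do not say how the cultures were separated, so p-values measure the spread between these libraries. The question was which protein-coding genes and gene classes had more or less of their length under peaks in both KO libraries than in both WT libraries.

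H2AK119ub is a ubiquitin on a lysine in the tail of histone H2A. Polycomb repressive complex 1 (PRC1) adds it, mostly around CpG-rich starts of silent developmental genes in stem cells, where it often lies beside the H3K27me3 of PRC2. The PR-DUB complex, built on the enzyme BAP1 and joined by MBD5 or MBD6, removes it. The study asks whether TET2, through oxidized methylcytosine in RNA, sets how much PR-DUB is recruited.

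Coverage of a gene was measured over its promoter, taken as the 2-kb window centred on the annotated start (mm10, GENCODE), and over its span from start to end. A promoter was called lower when both KO libraries lay below both WT libraries with at least 25 percentage points, or 500 bases, between the nearest pair, and higher in the reverse case. A span needed a gap of 10 percentage points and 500 bases. These calls describe 4 libraries and are no test. A test was run beside them with limma across all genes with a peak in any library, with Benjamini-Hochberg adjustment. Genes on autosomes 1 to 19 were used, 20807 in all. Chromosome 6 from 81 Mb (630 genes) and chromosome 13 from 96 Mb (151 genes) are given apart, because their edges had been placed on these same data. The other 20026 genes are called the other autosomes here.

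The lists hold positions with no counts, so the depth of each library is unknown and more peaks can come from more reads. On the other autosomes the 4 lists held 146880 to 156648 peaks with a median width of 734 to 758 bases. Peaks covered 243 and 232 Mb in WT (237 ± 7.57 Mb, SD, n = 2) and 240 and 224 Mb in KO (232 ± 11.6 Mb, SD, n = 2). The groups overlapped, and the difference of -2.13% gave p = 0.667 (two-sided exact permutation test over 6 assignments, which cannot go below 0.333). Its direction rested on single libraries when the replicate numbers were ignored, and was 0.132% without WT replicate 1 and 1.33% without KO replicate 2. Within each replicate number the KO library covered less than the WT library. Whether same-numbered libraries were made together is not stated. A smaller share of cells with the mark and less of the mark per cell cannot be told apart in such lists.

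The mean coverage around gene starts did not separate the genotypes on the other autosomes. Promoter windows were covered at 43.4% and 44.1% of their length in WT and 44.9% and 43.8% in KO on average. A peak touched the promoter of 13832 to 14088 of the 20026 genes per library. Of these genes, 12377 had a promoter peak in all 4 libraries, 2120 had the whole window under a peak in all 4, and 4670 had none in any. The middle of the distribution was 0.0 percentage points between genotypes, with quartiles at -5.43 and 7.5 over the 15356 promoters tested. In the bins next to the start, peaks covered 49.0% to 54.1% of the sequence in every library of both genotypes.

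**Figure D1:**
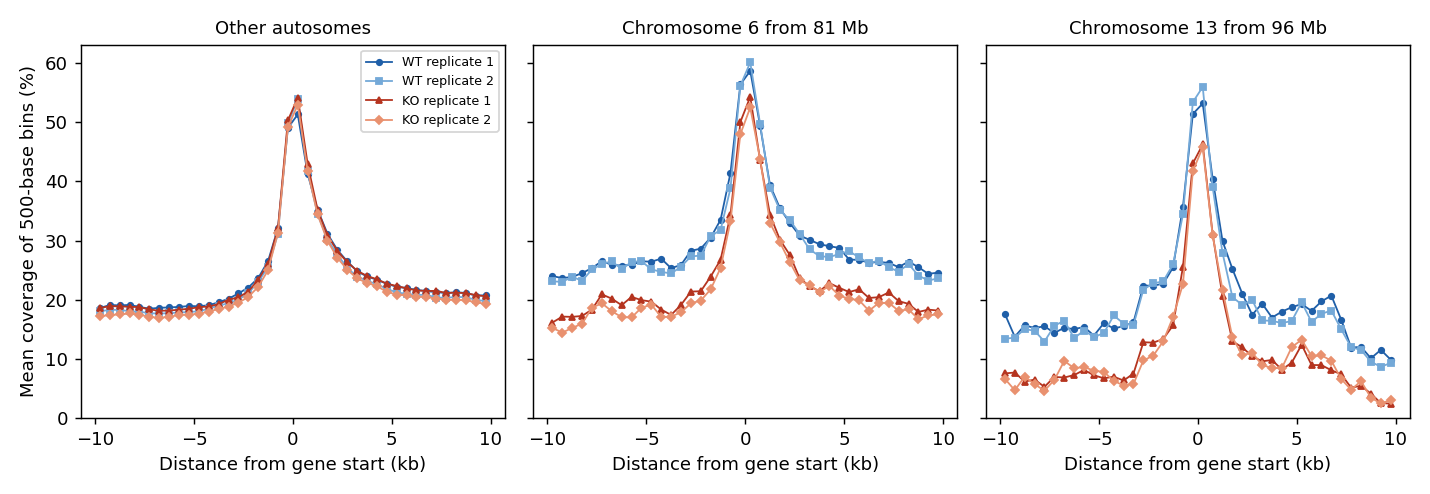
Mean share of 500-base bins under H2AK119ub peaks (y axis, percent) against distance from the gene start (x axis, kb; negative is upstream) for each of the 4 libraries, over protein-coding genes of the other autosomes, of chromosome 6 from 81 Mb and of chromosome 13 from 96 Mb. The 4 lines lie together on the other autosomes, while both KO lines lie below both WT lines at and around the start in the right-hand panels.

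Several genes that the study names were looked at first. Tet2, the deleted gene, had no promoter peak in any library and 1 peak of 0.501 kb in its span in WT replicate 2 (chr3:133463679-133545139, minus strand), so these lists cannot check the knockout. Bap1, the PR-DUB enzyme, had its promoter covered at 37.6% and 13.4% in WT and 55.4% and 53.4% in KO. Both KO values were the higher ones, but the gap was below 25 points and limma did not call it (difference 28.9 points, SE 11.5, adjusted p = 0.993). Mbd6 codes for a partner of PR-DUB with a methyl-binding domain, which the paper reports to prefer RNA m5C. Its promoter had 39.7% and 25.1% in WT and 42.5% and 32.6% in KO, and the groups overlapped. Mbd5, its relative, had a promoter peak in the second library of each genotype only, over 34.2% and 25.1% of the window. Nsun2, an RNA m5C methyltransferase, had 0% and 3.7% in WT against 15.4% and 2.6% in KO, and Pspc1, an RNA-binding protein of paraspeckles, had 25.1% and 25.1% in WT against 25.1% and 31.3% in KO. Neither of these pairs separated. Socs3, a feedback inhibitor of cytokine signalling, was covered at 100% and 100% in WT and 100% and 97% in KO, at or near the ceiling throughout. Nfkbia, which codes for the NF-kB inhibitor IkBa, had 70.5% and 36.9% in WT and 32.5% and 31.8% in KO. Its KO values lay below both WT values by less than the rule asks (limma adjusted p = 0.993).

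Outside the segments of chromosomes 6 and 13, 266 of 15356 promoters (1.73%) were called lower in KO and 311 (2.03%) higher. The calls went both ways in similar number and sat at 251 and 290 separate loci. Among promoters called lower, 121 (45.5%) kept no peak in either KO library, and 141 (53.0%) kept one in both. Among those called higher, 155 (49.8%) had no peak in either WT library, and 149 (47.9%) had one in both. Many calls were small. In 58 promoters called lower and 60 called higher the coverage never exceeded 1 peak of 501 bases, the usual smallest peak, which is 25.05% of the window. The window was full in both WT libraries for 61 promoters called lower, and in both KO libraries for 56 called higher. At the edge of the rule, Nprl2 was just inside (99.5% and 98.5% in WT, 66.1% and 73.5% in KO, a gap of 25 points) and Tcfl5 just outside (44.3% and 43.5%, 18.7% and 17.9%, a gap of 24.8). Of those higher, Nobox was just inside (55.9% and 43.8%, 80.9% and 80.9%) and Stau1 just outside (46.8% and 0%, 81.8% and 71.7%, a gap of 24.9). The share called ranged over chromosomes from 0.593% to 2.95% for lower and from 1.27% to 3.25% for higher calls.

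By limma, 12 of 15956 promoters on all autosomes (0.0752%) were lower and 13 (0.0815%) higher at an adjusted p below 0.05. The numbers depended on how peaks and windows were drawn, with 0 lower and 0 higher for peaks joined within 1 kb and 1 and 1 for peaks of at least 1 kb. Lists of equal peak number gave 12 lower and 11 higher, and windows of 2 kb on each side gave 137 and 111.

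The promoter with the widest loss was Gm8909, a predicted gene on chromosome 17 (chr17:36164443-36168537, minus strand). It was covered at 100% and 100% in WT and 0% and 0% in KO (difference -100 points, SE 5.29, limma adjusted p = 0.214). The window was full in one genotype and empty in the other, and limma did not call it. Mroh2a, which codes for a HEAT-repeat protein (chr1:88226986-88262289, plus strand), had 100% and 100% in WT and 4.5% and 44% in KO. Krtap5-5, a keratin-associated protein gene of hair (chr7:142228795-142229971, minus strand), had 93.8% and 48.2% in WT and no peak in KO. Tstd1, which codes for a rhodanese-domain protein (chr1:171418872-171420352, plus strand), had 91.2% and 99.8% in WT and 25.1% and 27.9% in KO. In all of these both WT libraries lay above both KO libraries, with the widest replicate spread in the WT pair of Krtap5-5 and the KO pair of Mroh2a.

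The other promoters with large losses follow. Ehf, an ETS transcription factor of epithelia (chr2:103263433-103303278, minus strand), was covered at 56.95% and 78.2% in WT and at 0% in KO. Cdsn, corneodesmosin of the outer epidermis (chr17:35552128-35557180, plus strand), had 100% and 73.2% in WT and 29.6% and 11.6% in KO. Ckmt2, a mitochondrial creatine kinase of muscle (chr13:91853387-91876885, minus strand), had 100% and 100% in WT against 31.9% and 34.1% in KO. It lies in a 5-Mb stretch of chromosome 13 described with the segments further on. Lgals2, galectin-2, had 64.5% and 100% in WT against 17.2% and 19.3% in KO, and Ctbp1, a transcriptional corepressor, had 100% and 78.6% in WT against 26.4% and 24.6% in KO. The others were Depdc7 (69.1% and 77.5% in WT against 6.5% and 4.5% in KO), the predicted gene Gm49721 (87.3% and 68.05% in WT against 25.1% and 0% in KO) and Rabgap1l, an activator of Rab GTPases (100% and 100% in WT against 5.9% and 64.9% in KO). No gene of these 12 passed the limma test, with adjusted p from 0.214 (Gm8909) to 0.993 (Rabgap1l).

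The promoter with the largest gain was Nadk2, the mitochondrial NAD kinase (chr15:9071260-9110891, plus strand), with 0% and 19.8% in WT and 96.8% and 92.5% in KO (difference 84.8 points, SE 10.1, limma adjusted p = 0.677). The predicted gene Gm10406 had no promoter peak in WT and 82.3% and 83.2% in KO. Pla2g4b, a phospholipase A2 (chr2:120033417-120043030, plus strand), had no peak in WT and 61.05% and 100% in KO. Rab5if, a RAB5-interacting factor (chr2:156863128-156873563, plus strand), had none in WT and 75.05% and 70.5% in KO. These promoters were free of peaks in both WT libraries, apart from a peak at Nadk2 in WT replicate 2. Pax4, a transcription factor of pancreatic islet development (chr6:28442334-28449353, minus strand), had 4.35% and 5.95% in WT and 76.2% and 73.8% in KO. Cd244a, a receptor of natural killer cells (chr1:171559193-171609746, plus strand), had 25.1% and 39.05% in WT against 100% and 100% in KO, and Apol8, an apolipoprotein L (chr15:77747798-77757003, minus strand), had 38.4% and 31.6% in WT against 100% and 100% in KO. For both the KO window was full and the WT window was partly covered.

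Nudc, a partner of the dynein motor, had no promoter peak in WT and 58.2% and 68.5% in KO. Aox4, an aldehyde oxidase, had none and 54.8% and 71.5%. Tas1r3, a subunit of sweet and umami taste receptors, had none and 79.05% and 46.5%. In all of these both WT libraries were at 0. The serotonin receptor gene Htr2a had 2.4% and 37.8% in WT and 100% and 65.2% in KO, and the predicted gene Gm35339 had 30.2% and 29.6% in WT against 100% and 100% in KO. The adjusted p of these 12 genes ran from 0.281 (Gm10406) to 0.993 (Htr2a).

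**Figure D2:**
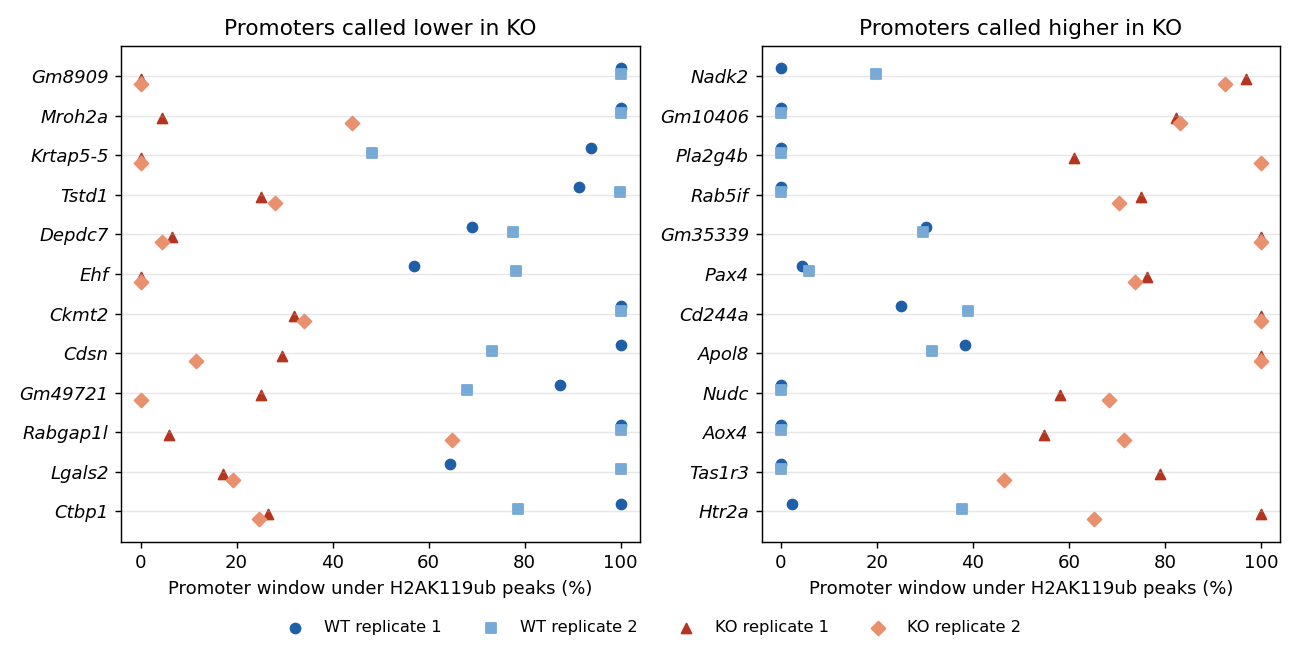
Percent of the 2-kb promoter window under H2AK119ub peaks (x axis) in each of the 4 mES libraries (points, by library) for the 12 promoters called lower and the 12 called higher with the largest difference of means outside both segments. Each left-hand row has its KO points at least 25 percentage points left of its WT points, and each right-hand row has the reverse, as the choice of rows requires.

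The sequences of several of these promoters are shown with their CpG content, the feature that PRC1 sites usually share. They are RefSeq promoter sequences of GRCm38.p6 (mm10), 250 bases before and 50 after the RefSeq start, on the strand of the gene and 5′ to 3′. Capitals mark the motif CG, which reads the same on both strands. Among the 24 genes above 17 had an entry. Of the 32851 promoter entries 94.6% hold at least 1 CG, and the median entry holds 7.0. The window of Mroh2a (chr1:88226770-88227069, plus strand) held 0, that of Krtap5-5 (chr7:142229922-142230221, minus strand) 3, and that of Cd244a (chr1:171558943-171559242, plus strand) 2. The windows of Tstd1 and Apol8, whose sequences are not printed, held 6 (Tstd1) and 7 (Apol8). The window of Rab5if (chr2:156862872-156863171, plus strand) held 41, as many as 3.46% of entries do. The window of Hoxb8 (chr11:96281655-96281954, plus strand), a Hox gene described with its class, held 13.
Mroh2a: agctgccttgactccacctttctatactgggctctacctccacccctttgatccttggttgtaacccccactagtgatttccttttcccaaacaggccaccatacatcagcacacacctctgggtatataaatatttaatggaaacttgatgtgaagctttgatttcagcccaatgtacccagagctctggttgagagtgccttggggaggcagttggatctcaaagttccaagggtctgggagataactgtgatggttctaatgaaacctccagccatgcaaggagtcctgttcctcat
Krtap5-5: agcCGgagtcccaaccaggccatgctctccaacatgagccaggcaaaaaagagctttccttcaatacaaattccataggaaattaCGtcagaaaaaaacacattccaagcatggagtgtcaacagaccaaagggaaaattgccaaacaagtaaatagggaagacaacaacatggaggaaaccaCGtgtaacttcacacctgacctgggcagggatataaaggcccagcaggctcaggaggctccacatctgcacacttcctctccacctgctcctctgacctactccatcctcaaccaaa
Cd244a: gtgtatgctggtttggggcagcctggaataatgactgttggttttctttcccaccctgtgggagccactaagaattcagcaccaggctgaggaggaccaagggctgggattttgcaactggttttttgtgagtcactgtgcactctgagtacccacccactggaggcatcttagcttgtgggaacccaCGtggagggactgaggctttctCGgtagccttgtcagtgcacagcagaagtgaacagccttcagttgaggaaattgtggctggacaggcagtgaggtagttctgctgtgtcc
Rab5if: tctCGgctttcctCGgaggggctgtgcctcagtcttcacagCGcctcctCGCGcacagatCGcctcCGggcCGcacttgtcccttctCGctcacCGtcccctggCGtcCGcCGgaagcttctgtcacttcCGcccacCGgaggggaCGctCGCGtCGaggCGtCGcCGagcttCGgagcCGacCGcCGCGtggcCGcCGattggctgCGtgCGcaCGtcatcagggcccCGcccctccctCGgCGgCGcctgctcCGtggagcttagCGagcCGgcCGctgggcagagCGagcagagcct
Hoxb8: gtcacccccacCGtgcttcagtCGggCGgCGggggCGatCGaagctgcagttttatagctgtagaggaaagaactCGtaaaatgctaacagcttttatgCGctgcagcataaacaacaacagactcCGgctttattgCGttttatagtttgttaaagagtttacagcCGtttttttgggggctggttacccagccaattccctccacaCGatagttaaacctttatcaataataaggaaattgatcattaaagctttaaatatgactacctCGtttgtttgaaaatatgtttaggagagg

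Other ways of drawing peaks and windows left part of these calls. With peaks of at least 1 kb, peaks joined within 1 kb, lists of equal number, or windows of 2 kb or 0.5 kb on each side, 5 of the 12 promoters with the largest losses were called under all 5 settings (Gm8909, Mroh2a, Tstd1, Depdc7 and Ckmt2). So were 7 of the 12 with the largest gains (Nadk2, Gm10406, Pla2g4b, Rab5if, Pax4, Apol8 and Aox4). Of all calls, 15 of 266 lower and 13 of 311 higher ones held under all 5, and 77 and 79 under the 3 that changed the peaks alone.

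As a group, promoters called lower were poorer in CpG than those tested. The median ratio of observed to expected CpG over the 2-kb window was 0.452 for promoters called lower, 0.591 for those called higher and 0.558 for all 15356 tested. A ratio below 0.4 was found in 42.5% of the promoters called lower, 32.5% of those called higher and 29.4% of all tested. Promoters with no peak in any library had a median of 0.151. Split by this ratio, 2.5% of promoters below 0.4 were called lower and 2.24% higher. The shares were 1.28% and 1.86% from 0.4 to 0.75, and 1.87% and 2.19% at 0.75 or more. The median span was 18.9 kb for genes called lower, 22.8 kb for those called higher and 20.3 kb for all tested. These are descriptions with no test.

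Promoters were also split by H3K27me3, with no test of the difference. Of 8995 tested promoters with an H3K27me3 peak in both WT libraries, 1.31% were called lower and 1.52% higher for H2AK119ub. Of 4920 with no H3K27me3 peak in either WT library, 2.42% were called lower and 2.97% higher. Mean H2AK119ub coverage was 68.8% to 70.4% per library in the first set and 19.1% to 20.3% in the second, so the room for a call differed. The same promoters were then read in the 4 mES H3K27me3 libraries, which took no part in the calls but come from the same cell lines. By the same rule, 36 of the 266 promoters called lower (13.5%) were also lower in H3K27me3 and 1 was higher. Of all tested promoters 10.1% were lower in H3K27me3 and 0.469% higher. Of the 311 promoters called higher, 21 (6.75%) were lower in H3K27me3 and 4 (1.29%) higher. Coverage by H3K27me3 peaks on the other autosomes was 176 and 217 Mb in WT and 203 and 142 Mb in KO, so the KO libraries of that mark differed widely in length.

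The same promoters were read in the H2AK119ub lists of HSPCs, where their calls ran close to those of all promoters tested. In HSPCs 4 of the 266 promoters called lower in mES cells were lower and 13 higher. Of the 311 called higher, 2 were lower and 17 higher. Among all tested promoters 0.651% were lower and 5.2% higher in KO HSPCs. The shares for promoters called in mES cells were 1.5% and 4.89%, and 0.643% and 5.47%.

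Over whole spans, 183 of 16531 genes on the other autosomes (1.11%) were called lower in KO and 203 (1.23%) higher. By limma on log2(covered bases + 500), 0 of 17184 spans on all autosomes were lower (0.0%) and 0 higher (0.0%) at an adjusted p below 0.05, while 1073 were lower and 938 higher at an unadjusted p below 0.05. A promoter and its span were often called apart, since 30 of the 266 promoters called lower and 24 of the 311 called higher had a span called the same way, and none the opposite way.

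The largest loss as a share of the span was at Hjurp, the chaperone that loads the centromeric histone CENP-A (chr1:88262471-88277633, minus strand). Peaks covered 93.8% and 94.8% of it in WT and 31.7% and 39.4% in KO. Its promoter was also lower in H3K27me3, with 95.2% and 100% in WT and 31.5% and 25.1% in KO. Its neighbours on chromosome 1 were lower too. Trpm8, the cold-sensing ion channel (chr1:88277661-88389293, plus strand), had 39.2 and 36.9 kb covered in WT and 22.9 and 23.8 kb in KO, and Mroh2a, whose promoter is described above, starts on the other side of Hjurp. Eef2, translation elongation factor 2 (chr10:81176631-81182498, plus strand), was covered at 100% and 100% in WT and 63.4% and 55.4% in KO. A pair of overlapping genes, Tomm40l, related to the mitochondrial import channel, and Nr1i3, the nuclear receptor CAR, had lower coverage alike. Tomm40l had 98.95% and 95.7% in WT against 57.3% and 51.5% in KO, and Nr1i3 had 87.8% and 83.8% against 56.3% and 42.2%. As they overlap, they are not separate observations. Cdsn had 68.8% and 59.8% in WT and 22.7% and 8.21% in KO, at the locus of its promoter call.

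The antioxidant enzyme gene Srxn1 had 90.1% and 100% of its span covered in WT and 61.1% and 56.1% in KO, while its promoter stayed at 87.9% to 94.6% in all libraries. Slc39a1, a zinc transporter, had 47.8% and 41.1% in WT against 14.9% and 12.5% in KO, and H2-DMb2, which helps load peptides on MHC class II, had 75.3% and 67.5% in WT against 37.5% and 43.2% in KO. Calhm3, an ion channel of taste cells, had 71.2% and 71.3% in WT against 30.02% and 40.2% in KO, and Tmem91 had 86.4% and 88.9% in WT against 49.95% and 54.8% in KO. In every one the KO pair lay below the WT pair, and at Calhm3 the promoter was called too. Among long genes the largest losses in bases were at Ttll11, a tubulin polyglutamylase (115 and 112 kb in WT, 74.4 and 72.2 kb in KO), and at Lhfpl2 (41.9 and 43.01 kb in WT against 23.1 and 24.3 kb in KO), which lies in the 5-Mb stretch of chromosome 13 that also holds Ckmt2. Dmrt1, a transcription factor of the testis, had 34.3 and 28.5 kb in WT against 16.9 and 16.7 kb in KO. Lef1, a transcription factor of the Wnt pathway, had 45.9 and 44.98 kb in WT against 32.9 and 30.1 kb in KO with its promoter full in all 4 libraries.

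The largest gain over a span was at the zinc-finger gene Zfp629 (chr7:127607031-127615797, minus strand), which was covered at 32.5% and 23.4% in WT and 100% and 93.4% in KO. Creld2, an endoplasmic reticulum protein, had 37.2% and 24.2% in WT against 75.2% and 96.7% in KO, and Polrmt, the mitochondrial RNA polymerase, had 27.98% and 25.3% in WT against 79.8% and 67.9% in KO. Ddx39b, an RNA helicase of mRNA export (chr17:35241746-35253707, plus strand), had 4.19% and 0% in WT and 51.2% and 44.7% in KO, with no promoter peak in any library. These gains lay inside the genes, since of these genes only Zfp629 had a promoter call. Pla2g4b and the readthrough gene Gm28042 that contains it were higher together. Pla2g4b had 31.2% and 54.2% in WT against 76.8% and 88.3% in KO, and Gm28042 had 29.4% and 49.4% against 76.4% and 74.3%. Nelfcd, a subunit of the elongation factor NELF, had 16.2% and 16.4% in WT against 60.2% and 42.2% in KO. The remaining genes were Pih1d1, a co-chaperone (20.2% and 35% in WT against 54.7% and 70.2% in KO), the importin Ipo4 (44.8% and 59.4% in WT against 85.8% and 88.04% in KO) and the protease Prss53 (15.8% and 26.8% in WT against 37.9% and 71.5% in KO).

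In bases, the imprinted gene Igf2r, whose product clears IGF2, led the gains with 22.4 and 21.7 kb in WT and 38.6 and 32.5 kb in KO. Gata4, a transcription factor of endoderm and heart, had 31.8 and 29.2 kb in WT against 40.4 and 43.04 kb in KO. Cd244a had 4.51 and 4.24 kb in WT against 15.9 and 15.2 kb in KO, so that both its promoter and its body were covered more. The sperm gene Lyzl4 had 40.3 and 42.1 kb in WT against 49.7 and 49.1 kb in KO, and Kmt2d, a histone H3 lysine 4 methyltransferase, had 10.5 and 9.69 kb in WT against 16.6 and 19.1 kb in KO. The promoters of Igf2r and Lyzl4 were full in all 4 libraries.

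**Figure D3:**
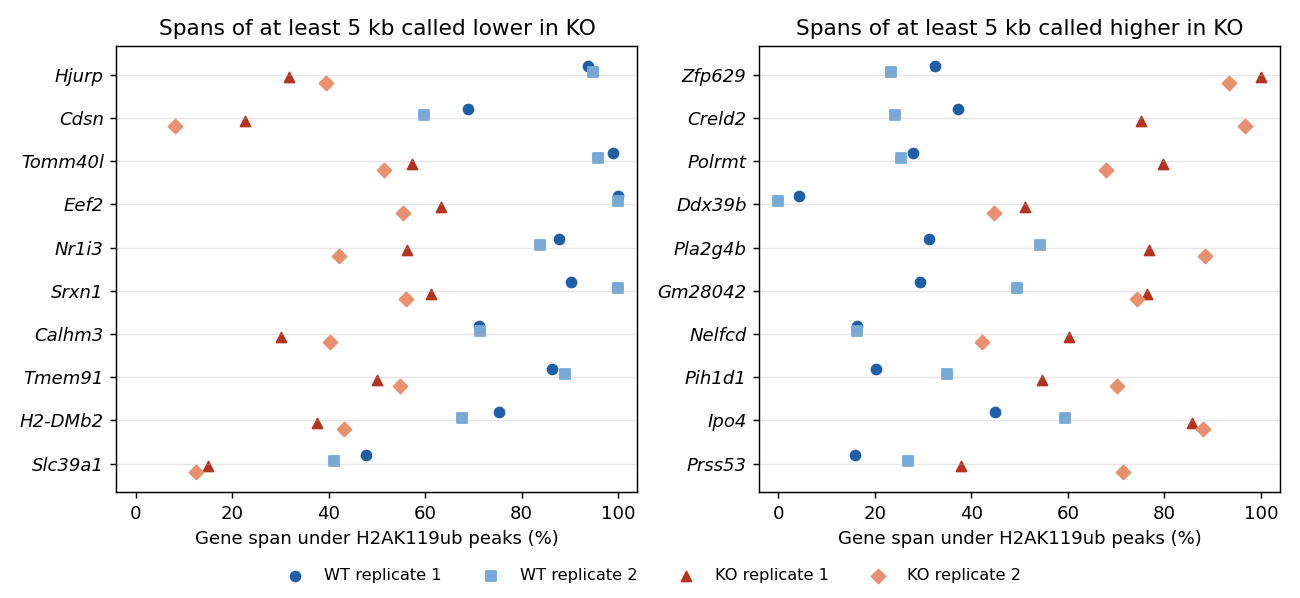
Percent of the gene span under H2AK119ub peaks (x axis) in each of the 4 mES libraries (points, by library) for the 10 spans of at least 5 kb called lower and the 10 called higher with the largest difference of means outside both segments. Hjurp has both KO points below 40% and both WT points above 93%, and Zfp629 has both WT points below 33% and both KO points above 93%.

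Called genes lay near each other at some loci. With gaps of at most 0.5 Mb between neighbours, 13 runs held at least 4 genes called lower in promoter or span and 11 held at least 4 called higher. On the other autosomes 1.73% of promoters and 1.11% of spans were called lower, and 2.03% and 1.23% higher. Each run began and ended at a called gene, and clustering was not tested. Some runs were thin, such as 4 of 37 tested genes lower on chromosome 17 and 4 of 48 higher on chromosome 11. On chromosome 18, 4 of 4 tested genes from 34624601 to 34720387 were called lower, namely Brd8, Kif20a, Cdc23 and Gfra3. On chromosome 5 the antiviral genes Oas2, Oas1c, Oas1f and Oas1a were called lower, 4 of 8 tested in 158 kb. Chromosome 10 held 8 of 21 around Eef2 (Lmnb2, Sgta, Thop1, Map2k2, Eef2, Dapk3, Atcay and Tjp3), and chromosome 1 held 7 of 19 around Nr1i3, from Fcgr3 to Tstd1. A run called higher lay over that same stretch of chromosome 1, with 5 of 29 (Gm26620, Dusp12, Ppox, Itln1 and Cd244a). On chromosome 6 below the segment, Lrrc61, Rarres2, Gm45021, Gm44965 and Zfp775 were called higher, 5 of 6 tested in 47.3 kb. The apolipoprotein L genes Apol7a, Apol10a, Apol11a and Apol8 on chromosome 15 were called higher with Foxred2, 5 of 16 tested. The kallikrein cluster of chromosome 7 went both ways, with Klk1b1, Klk1b26 and Klk1b4 lower and Klk14, Klk1b11, Klk1b27 and Klk1 higher. Genes in a run can share a peak and are not independent. Predicted genes and members of tandem families, such as Krtap5-5, Apol8, Aox4 and the Klk, Oas, Zfp and olfactory receptor genes, can share reads with close copies, and their values are uncertain to that extent.

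Genes were then grouped into 38 classes on the other autosomes, and the classes into broader groups. Every one of the groups had a median difference of 0.0, as all promoters tested had, except the chromatin regulators at 4.16 percentage points. The developmental transcription factors carried the most mark. Of their 185 tested promoters 101 were full in all 4 libraries, against 2120 of 15356 overall. Their mean promoter coverage was 87.0% and 87.0% in WT and 89.9% and 90.8% in KO, so both KO libraries lay above both WT libraries, as they did under each of the 5 other settings of peaks and windows (difference 3.30 points, 1.32 with peaks within 1 kb joined, and 2.86 to 3.74 without 1 of the libraries). Of the 185, 1 (0.541%) was called lower and 6 (3.24%) higher, beside 1.73% and 2.03% of all promoters. With peaks within 1 kb joined, 0 were lower and 1 higher. A promoter that is already full cannot be called higher.

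Hox genes, which set position along the body axis, made up 3 of these 6. All 39 had a promoter peak in all 4 libraries, and their mean coverage was 90.7% and 93.3% in WT and 96.6% and 96.7% in KO. Hoxb8 (chr11:96281905-96285315, plus strand) was covered at 55.6% and 57.1% in WT and 100% and 100% in KO. Hoxd3 and Hoxd4 start 2 bases apart, share their window and had 52.6% and 71% in WT and 100% and 100% in KO. Hoxc4, full at its promoter throughout, had its span covered at 70.4% and 68.3% in WT against 80.4% and 84.2% in KO. With peaks within 1 kb joined the mean coverage of the Hox promoters was 100% in all 4 libraries, with 0 calls either way. The differences at Hox promoters thus lay in gaps of at most 1 kb between peaks. The median difference of the class was 0.0, against 43.6 points at Hoxb8 and 38.2 in the window shared by Hoxd3 and Hoxd4. Pax genes, regulators of organ development, had 85.1% and 85.7% in WT and 93.4% and 97.1% in KO on average over 9 genes, of which Pax4 was the call. This mean rested on 2 genes, Pax4 with a difference of 69.85 points and Pax5 with 18.75, and the median of the class was 0.0. The KO means lay above under each of the 5 other settings.

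Fox genes, forkhead transcription factors, held 2 promoter calls among 36, both higher, where 1.73% of all promoters were called lower and 2.03% higher. With peaks within 1 kb joined there were 0 Fox calls either way and the class means overlapped. With peaks of at least 1 kb there were 2 lower and 2 higher. Foxp4 had 61.1% and 39.8% in WT and 100% and 100% in KO. Foxq1 had 74.2% and 73.2% in WT against 100% and 100% in KO, and limma called it (difference 26.3 points, SE 0.385, adjusted p = 0.0132). The endoderm factor Foxa1 and the ovary factor Foxl2 were called higher over their spans, with 56.9% and 57.5% in WT against 84.1% and 79.04% in KO for Foxa1, and 75.2% and 55.3% against 100% and 100% for Foxl2. Hey1, a target of Notch signalling, was the developmental transcription factor called lower. Its promoter was covered at 100% and 100% in WT and 73.95% and 73.95% in KO (difference -26.1 points, SE 0.038, limma adjusted p = 0.000201). The span of Nkx2-6, a homeobox gene of pharynx and heart, went from 100% and 100% in WT to 59.2% and 63.4% in KO.

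The 25 promoters that limma called were mostly of this kind, full in both libraries of a genotype and covered from 69.4% (Sh3rf2) to 77.8% (Hdac10) in the other, with both libraries of a pair nearly equal. Besides Hey1 and Foxq1 they held Fzd9 and Chrd, an inhibitor of BMP signalling (100% and 100% in WT and 71% and 70.6% in KO). Gldn was called for a difference of -0.9 points (100% and 100% in WT, 99.1% and 99.1% in KO), with equal values within each genotype. Coverage cannot pass 100%, so libraries that reach it show no spread. Gm8909, with no spread in either genotype, was not called at 100% in WT against 0% in KO. The limma p-values of single promoters are thus a poor guide to how firm a difference is. In all, 19 of the limma calls on the other autosomes were also called by separation.

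Among signalling and surface genes, 4 of 591 promoters (0.677%) were called lower and 14 (2.37%) higher, beside 1.73% and 2.03% of all promoters. Wnt ligands, receptors and antagonists held 4 of these 14. Wnt7b had 65.2% and 70.1% in WT and 100% and 100% in KO, and Wnt8b had 47.3% and 65% in WT against 91.3% and 100% in KO. The Frizzled receptor genes Fzd9 and Fzd10 had 70.2% and 71.8% (Fzd9) and 63.5% and 72.8% (Fzd10) in WT, and both were full in both KO libraries. For Fzd9 limma gave a difference of 29 points (SE 0.699, adjusted p = 0.0379). Over the 46 Wnt pathway genes the mean was 83.2% and 82.8% in WT and 86.2% and 87.3% in KO, above under each of the 5 other settings too. The call of Wnt8b did not outlast the joining of peaks, where its difference became -4.33.

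Clustered protocadherins, cell-surface proteins that give neurons their identity, had 0 of 57 promoters lower and 3 higher, where 1.73% and 2.03% of all promoters were called. Their mean was 48.5% and 47.2% in WT and 50.9% and 55.1% in KO. Pcdha6 and Pcdha8 had no promoter peak in WT and 50.2% and 58.8% (Pcdha6) or 31.5% and 42.1% (Pcdha8) in KO, and Pcdhb14 had 11.4% and 17.5% in WT against 60% and 62.4% in KO. Voltage-gated ion channels had 0 of 105 lower and 3 higher, beside 1.73% and 2.03% of all promoters. They were Kcnt2 (25.1% and 0% in WT against 63.05% and 61.7% in KO), Cacna1a (0% and 0% in WT against 42.5% and 25.1% in KO) and Cacng4 (68.7% and 70.3% in WT against 100% and 100% in KO). Solute carriers held the 4 calls downward of this group among 274 promoters, beside 3 upward. Slc2a9, a urate transporter, had 100% and 100% in WT and 31.4% and 49.5% in KO, and Slc30a1, a zinc exporter, had 100% and 100% in WT against 57.8% and 45.2% in KO. Slc36a1, an amino acid transporter of lysosomes, went the other way with 43.7% and 57.5% in WT against 89.95% and 91.2% in KO. Of 36 Fgf, Bmp and Gdf ligands none was called at the promoter, while the span of Nodal, a morphogen of the early embryo, had 29.99% and 45.3% in WT and 15.3% and 8.53% in KO. No call fell on the 37 collagens tested.

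Broadly expressed genes had mean promoter coverages of 29.4% and 32.0% in WT and 31.4% and 31.3% in KO, below the means of all promoters. Of 253 tested, 4 (1.58%) were called lower and 8 (3.16%) higher, beside 1.73% and 2.03% of all promoters. Glycolysis genes within the group had more, 53.6% and 55.0% in WT and 53.6% and 49.2% in KO, with 0 of 14 promoters called. Ribosomal proteins had a mean coverage of 28.6% and 31.8% in WT and 28.5% and 27.7% in KO. Both KO means lay below both WT means here and under each of the 5 other settings. The nearest libraries were close, at 28.61% (WT replicate 1) and 28.47% (KO replicate 1). The difference was -2.13 points with all libraries and -0.546 without WT replicate 2. No ribosomal promoter was called lower, but the span of Rpl13a was (61.95% and 54.7% in WT against 4.96% and 21.9% in KO). Rps20 was called higher at its promoter, with none in WT and 25.1% and 54.5% in KO. Mitochondrial ribosomal proteins leaned the other way, with means of 36.8% and 39.8% in WT and 42.2% and 42.6% in KO, above under each of the 5 other settings. They held calls both ways, such as Mrps12 (87.2% and 88.95% in WT against 33.05% and 43.9% in KO) and Mrpl57 (0% in WT and 25.1% and 37.1% in KO). Replication and centromere genes had 34.6% and 35.6% in WT and 30.7% and 32.9% in KO, with Hjurp as the call, and their means overlapped for peaks of at least 1 kb. Proteasome subunits had 2 calls, both higher, at Psmc1 (0% in WT and 34.5% and 46.2% in KO) and Psmd7 (0% in WT and 35.5% and 31.9% in KO).

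Replication-dependent histone genes, packed in clusters without introns, had 17.2% and 20.2% in WT and 22.2% and 22.8% in KO, above under each of the 5 other settings. They held 1 call each way, Hist1h2bh and Hist1h1t, and each rested on a smallest peak in both libraries of a genotype.

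Genes of chromatin regulators had no promoter call in either direction among 60, where 1.73% and 2.03% of all promoters were called. Their mean was 43.8% and 45.6% in WT and 48.4% and 48.7% in KO, and it overlapped between genotypes with windows of 0.5 kb on each side (50.7% and 54.1% in WT, 52.5% and 56.2% in KO). Over the 13 genes of PR-DUB and its partners the mean was 36.8% and 35.3% in WT and 41.1% and 47.3% in KO, above under each of the 5 other settings. PRC1 genes had 54.9% and 58.5% in WT and 57.2% and 55.6% in KO, and those of PRC2 42.4% and 43.7% against 41.2% and 48.5%, so neither separated. Within them the span of Bmi1, a PRC1 subunit, had 47.2% and 42.6% in WT and 61.02% and 62.7% in KO. For Epop, a PRC2 partner, it was 69.4% and 74.3% in WT against 100% and 100% in KO. Genes for TET and DNA methyltransferase enzymes had 50.9% and 49.4% in WT and 54.3% and 53.7% in KO, above under 4 of the 5 other settings.

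Cell state genes had 0 of 122 promoters lower and 2 (1.64%) higher, beside 1.73% and 2.03% of all promoters. None of 24 tested pluripotency promoters was called, and their means overlapped (55.3% and 60.3% in WT, 59.0% and 57.4% in KO). The mES markers listed for this work, 12 in all, had a promoter peak in 11 or 12 cases per library. Feeder fibroblast markers had one in 6 or 7 of 8, with no peak at Col3a1, and a mean coverage of 51.4% and 58.2% in WT and 60.6% and 64.4% in KO, so that both KO means lay above both WT means. Their part in other results was not tested. Prrx1 among them was called higher (74.5% and 59.9% in WT, 100% in both KO libraries). Blood markers had one in 6 of 7, with no peak at Ptprc. A peak of this mark is no measure of expression, so these lists cannot show which cells were present. Imprinted genes had 54.8% and 54.4% in WT and 57.6% and 59.6% in KO, above under each of the 5 other settings. Klf14 was called at the promoter (26.7% and 28.3% in WT against 65.7% and 60.3% in KO). Igf2r and the overlapping neighbours Nnat (14.3% and 10.9% in WT against 51.9% and 45.5% in KO) and Blcap (16.01% and 16.1% in WT against 26.5% and 30.8% in KO) were called over the span, all higher. Of germline genes only Nobox, an oocyte factor, was called, and it lay at the edge of the rule (55.9% and 43.8% in WT against 80.8% and 80.8% in KO).

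Tandem gene families and zinc fingers had 7 of 492 promoters (1.42%) lower and 20 (4.07%) higher, beside 1.73% and 2.03% of all promoters. With peaks of at least 1 kb the counts were 8 and 9, and with windows of 2 kb on each side 3 and 1. Zinc-finger genes with Zfp or Zkscan names made up 4 of the 7 and 13 of the 20. Besides Zfp629, these were led by Zfp105 (0% and 0% in WT and 38.6% and 66.2% in KO) and Zfp524 (7.8% and 5.35% in WT against 67.7% and 34.4% in KO). Over 401 zinc-finger genes the mean was 32.9% and 32.3% in WT and 34.5% and 33.0% in KO, and it overlapped between genotypes under 4 of the 5 other settings. Of 1082 olfactory receptor genes 1006 had no promoter peak in any library, and of the 76 tested 1 was called lower, Olfr1339 (95% and 92.5% in WT against 55.5% and 31.8% in KO), and 3 higher, Olfr631, Olfr658 and Olfr1393, each with no promoter peak in WT. Serpina3n, a secreted protease inhibitor, was called lower (100% and 65.5% in WT against 36.8% and 4.1% in KO), and Serpinb6b higher (0% and 0% in WT against 69.2% and 25.1% in KO). Of 38 classes, 22 had both KO means on one side of both WT means, 4 lower and 18 higher. Each such class gave p = 0.333 (exact permutation test over 6 assignments), the lowest possible with these libraries, so separation alone is weak. Some gaps were small, such as 0.291% (WT replicate 2) against 0.297% (KO replicate 2) for vomeronasal receptors. Over all promoters tested the mean difference was 0.71 points, and the other settings redraw the same 4 lists. Members of a class share loci and do not replicate a condition.

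**Figure D4:**
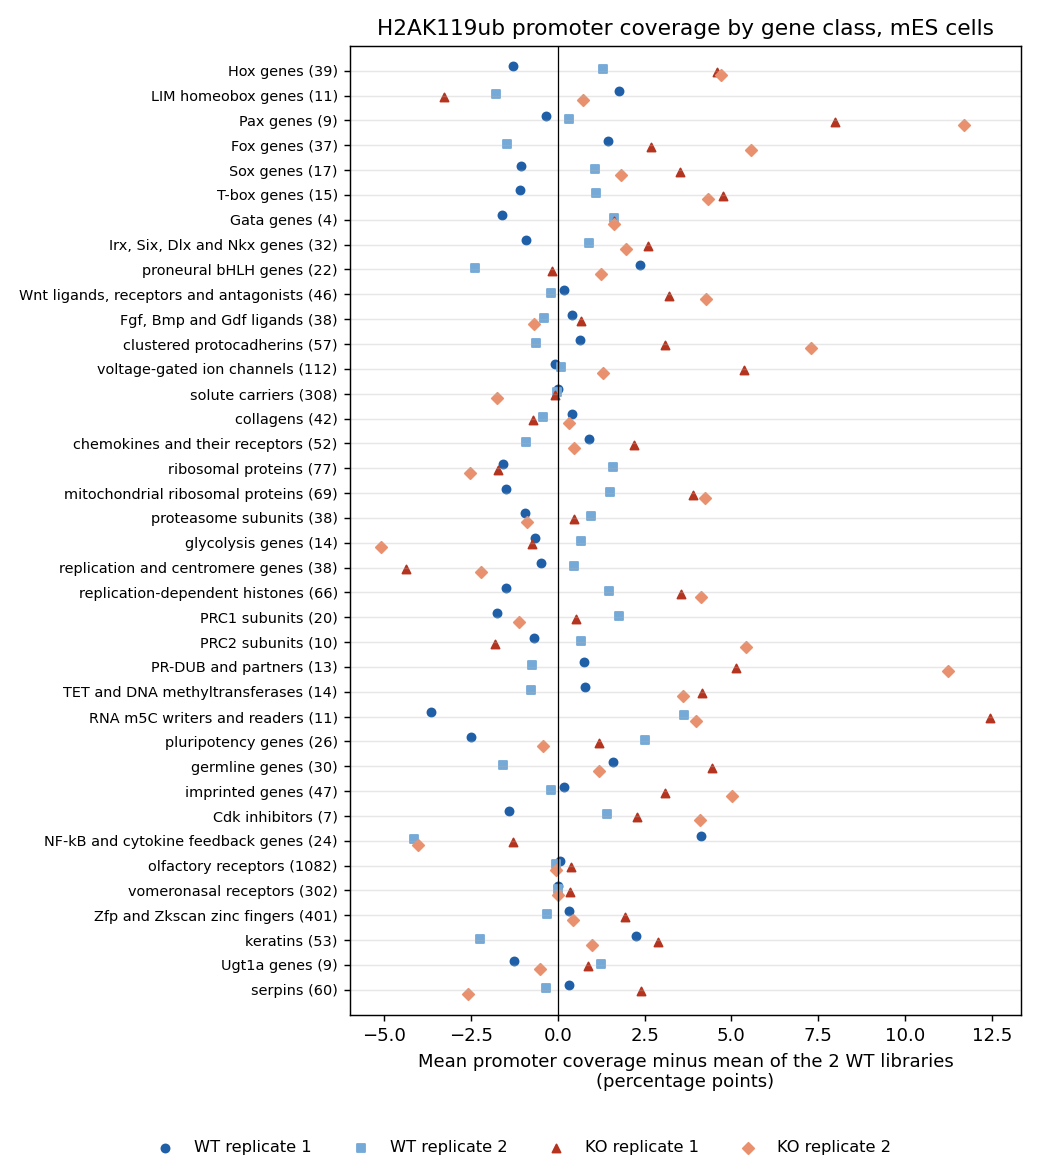
Mean H2AK119ub promoter coverage of each of the 38 gene classes in the 4 mES libraries (points, by library), given on the x axis as the difference in percentage points from the mean of the 2 WT libraries, with the number of genes in brackets. The Pax, PR-DUB, Hox, Wnt and mitochondrial ribosomal protein classes have both KO points to the right of both WT points (for Pax mostly through Pax4), and the ribosomal proteins have both to the left.

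The segment of chromosome 6 from 81 Mb differed from the rest. Peaks covered 13.3 and 12.8 Mb of it in WT and 9.64 and 8.93 Mb in KO, a difference of -28.9%. Relative to the other autosomes the difference was -0.46 on the log2 scale, and both KO libraries lay below both WT libraries. Peaks were fewer, 6217 and 5881 against 7382 and 7337, and narrower on average. Of 483 promoters 38 (7.87%) were called lower and 13 (2.69%) higher, and of 530 spans 105 (19.8%) were lower and 8 (1.51%) higher. The median difference was -5.2 points at promoters and -5.32 points over spans, and 432 of 530 spans (81.5%) had a lower mean in KO. The smaller segment on chromosome 13 from 96 Mb went further, with 2.82 and 2.69 Mb covered in WT and 1.24 and 1.14 Mb in KO (-56.7%, and -1.18 on the log2 scale relative to the other autosomes). Of 117 promoters 19 (16.2%) were lower and 0 (0.0%) higher, and of 123 spans 22 (17.9%) were lower and 0 (0.0%) higher. The median differences there were -7.13 points at promoters and -1.95 over spans.

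The difference ran along both segments, apart from the end of chromosome 6 and single windows. In windows of 1 Mb, both KO libraries lay below both WT libraries in 59 of 60 windows from 81 to 141 Mb, and in 22 of 25 windows of chromosome 13 from 96 Mb. From 141 Mb to the end of chromosome 6 the order was the reverse, with both KO libraries above in 7 of 9 windows. That mark was placed after the values were seen, so the split is a description. From 81 to 141 Mb peaks covered 12590 and 12090 kb in WT and 8688 and 8095 kb in KO (-32.0%). Beyond 141 Mb they covered 745 and 706 kb in WT and 951 and 839 kb in KO (23.3%). Of the 48 promoters tested there, 11 were called higher and 0 lower. On chromosome 13 the 5 Mb before the segment, from 91 to 96 Mb, had 624 and 589 kb in WT and 466 and 447 kb in KO (-24.8%), and held Ckmt2 and Acot12 as promoters called lower. Below these marks the difference was 2.75% on chromosome 6 up to 81 Mb and -3.63% on chromosome 13 up to 91 Mb.

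**Figure D5:**
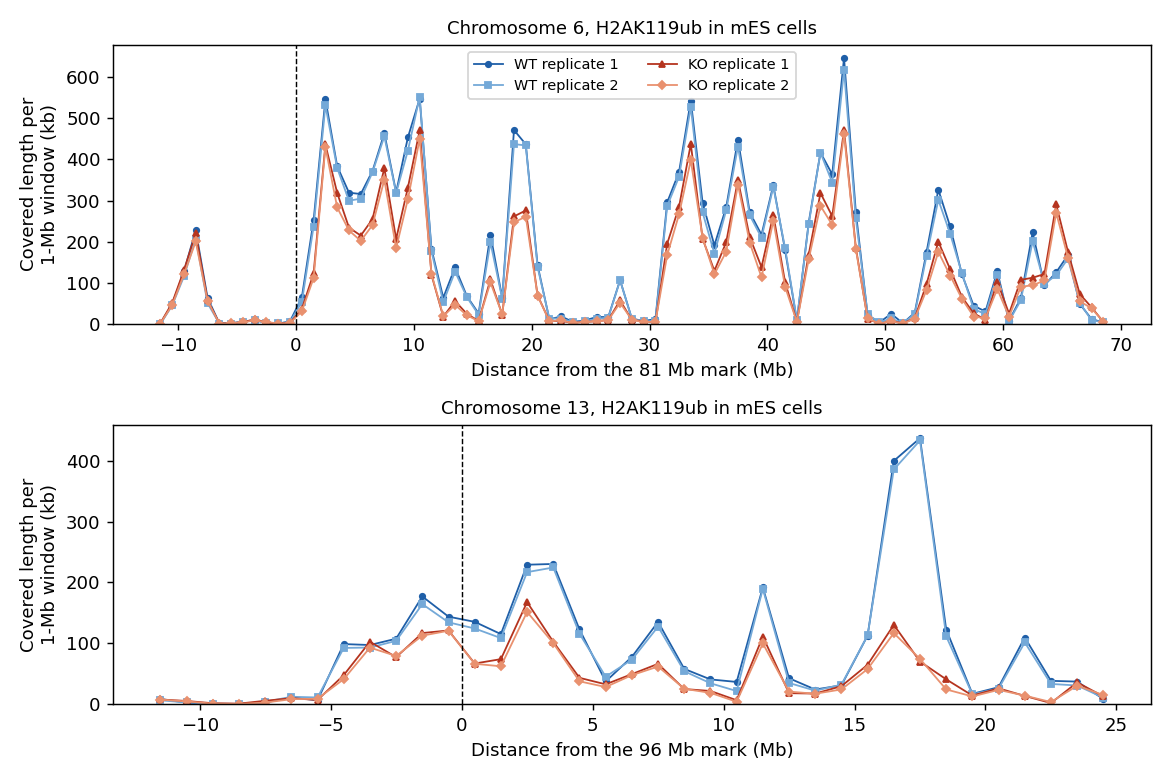
Length under H2AK119ub peaks per 1-Mb window (y axis, kb) in the 4 mES libraries against distance from the 81 Mb mark of chromosome 6 and the 96 Mb mark of chromosome 13 (x axis, Mb; the dashed line is the mark). Both KO lines lie below both WT lines in 59 of 60 windows to the right of the mark on chromosome 6, up to 60 Mb from it, and above them in 7 of the last 9.

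Rimklb (chr6:122447296-122498761, minus strand) was the promoter with the largest difference on the chromosome 6 segment, with 68.4% and 90.8% in WT and no peak in KO. Wnk1, a kinase that regulates ion transport, had 100% and 100% in WT and 8.65% and 34.5% in KO. Mfap5, a microfibril protein, had 54.8% and 68.5% in WT and no peak in KO, and Tatdn2 had 98.8% and 72.05% in WT against 25.7% and 25.8% in KO. The KO values lay below the WT values in all of them. The shared promoter of Golt1b and Recql, a DNA helicase, lies beyond 141 Mb and went the other way (25.1% and 39.2% in WT and 97.1% and 100% in KO for Golt1b). Further genes of the segments were picked after their values were seen. The pluripotency genes Dppa3, Gdf3 and Nanog lie in the lower stretch. Dppa3, a maternal factor of the early embryo, had 100% in both WT libraries and 47.8% and 67.5% in KO. Gdf3, a TGF-beta family ligand, had 72.6% and 71.0% in WT and 38.4% and 41.9% in KO. Nanog, a core pluripotency factor, had 32.0% and 34.8% in WT and 25.1% in both KO libraries, a gap too small for a call. Over spans, Foxp1, a forkhead factor, had 205 and 189 kb covered in WT and 103 and 93.8 kb in KO.

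On the chromosome 13 segment Tnpo1, a nuclear import receptor (chr13:98839019-98926384, minus strand), had 61.8% and 97.7% in WT and no peak in KO. Emb, a cell adhesion protein, had 100% and 51.2% in WT and no peak in KO. The protease gene Gzma of cytotoxic lymphocytes had 76.7% and 92.9% of its span covered in WT and 14% and 16.5% in KO. Snx18, a sorting nexin, had 86.8% and 86.1% in WT against 19.6% and 26.2% in KO, and Gpx8, a peroxidase of the endoplasmic reticulum, had 46.5% and 62.3% of its span covered in WT and none in KO. The difference did not reach every gene. Isl1, a LIM homeobox factor on this segment, had its promoter covered at 75.3% and 72.2% in WT and 81.2% and 100% in KO.

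Both segments stood apart for H3K27me3 in the same cells too. Relative to the other autosomes the KO minus WT difference in covered length was -0.39 on chromosome 6 and -0.66 on chromosome 13 (log2 scale, both KO below both WT, exact permutation p = 0.333 for each). In HSPCs the same values were 0.03 and 0.10 for H2AK119ub, where the groups overlapped (exact permutation p = 1.0 for each). For H3K27me3 in HSPCs they were 0.04 and -0.11 (exact permutation p = 0.333 for each), and the genotypes did not overlap, with both KO libraries above on chromosome 6 and below on chromosome 13. The stretch of chromosome 6 beyond 141 Mb had -6.49% for H3K27me3 in mES cells, with overlapping libraries, and 2.77% for H2AK119ub in HSPCs.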

How the data were processed

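H2AK119ub CUT&Tag peak lists from 2 WT and 2 Tet2 KO mES libraries were analysed, with mES H3K27me3 and HSPC lists as other readouts. The study lists 3 replicates per genotype, and 2 are analysed here. Before deposit the authors used Trimmomatic 0.39 for trimming and Bowtie2 2.4.1 for alignment to mm10, removed duplicates with Picard, called broad peaks with MACS2 in each library and used HOMER 4.9 (versions from the submitters' processing notes). The deposited lists give peak positions with no score, count or other unit. A library with more reads can have more and wider peaks, and a spike-in scaling leaves no trace in such lists.

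Peaks were merged within a library and intersected with the promoter and span of each GENCODE protein-coding gene (Python 3.11.15, pandas 2.3.3, numpy 2.4.6). Genes with a peak in any library were tested. Separation calls and thresholds are given with the results. Promoter percent and log2(covered bases + 500) of spans were fitted with limma 3.58.1 (R 4.3.3, trend and robust on, Benjamini-Hochberg over all autosomal features tested), and the scripts were tested on simulated data. Covered length was compared by an exact permutation test (two-sided, 6 assignments). Groups came from the labels. The text names the 12 promoters per direction and the 10 spans per direction of at least 5 kb with the largest difference among those called, the 5 spans per direction with the largest difference in bases, the 12 segment genes with the largest difference, the study's own genes and called members of the gene classes. The limma calls numbered over 20 and are named in part. Results for some genes that meet these rules are not reported here. Other genes were chosen after their values were seen. The members, the lists and the edges of both segments were chosen with earlier results of these data known. Alternatives changed the peak width, joining, number of peaks, promoter window, gap, filter, limma settings and replicates.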

Additional observations from a re-analysis of the deposited data

Results flagged for a closer look

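These results were listed because H2AK119ub moved one way in both KO libraries of mES cells and the other way in both KO libraries of HSPCs, with no overlap between genotypes in either. The difference between the cell types was not tested in any of them.

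Among promoters lower in mES cells, Lgals2 differed by -64.0 percentage points there and by 42.9 in HSPCs (16% and 19.4% in WT, 65.8% and 55.4% in KO), where it was called higher.

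Among promoters higher in mES cells, Pla2g4b differed by 80.5 points there and by -38.1 in HSPCs (100% and 100% in WT, 43.8% and 80% in KO). Tas1r3 differed by 62.8 and -26.4 (74.3% and 100%, 59% and 62.6% in HSPCs), and Fzd9 by 29.0 and -14.7 (100% and 75.1%, 71.7% and 73.95%). Zfp629 differed by 45.4 points in mES cells and by -2.28 in HSPCs (61.0% and 62.5% in WT, 58.8% and 60.2% in KO). Pih1d1 differed by 11.7 and -15.1 points.

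Of the gene classes, solute carriers differed in mean promoter coverage by -0.905 points in mES cells and by 9.04 in HSPCs. All promoters tested were also higher on average in KO HSPCs (59.5% and 53.1% in WT, 63.3% and 63.7% in KO). For solute carriers in mES cells the nearest libraries were 59.86% (WT) and 59.8% (KO), and the genotypes overlapped under 4 of the 5 other settings. Their difference in mES cells was -0.069 without KO replicate 2 and -1.74 without KO replicate 1. Replication-dependent histones differed by 3.84 in mES cells and by -2.32 in HSPCs (64.1% and 65.8% in WT, 61.5% and 63.8% in KO).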

How the results depend on the processing

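With windows of 2 kb on each side, 64 promoters were called lower and 46 higher. With any gap above 0 the numbers were 1736 and 2141, with a gap of 50 points 15 and 14, and with a peak in both libraries of a genotype and neither of the other 160 and 199. Leaving out 1 library in turn gave 708 to 852 lower and 786 to 1049 higher, as a comparison of 1 against 2 libraries separates more often by construction. For spans any gap above 0 gave 2930 and 3118, a gap of 20 points 49 and 47, and leaving out a library 366 to 642 and 455 to 749.

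The limma calls on promoters went from 12 lower and 13 higher to 1 and 1 with peaks of at least 1 kb, 0 and 0 with peaks joined within 1 kb, 137 and 111 with windows of 2 kb on each side, 1 and 2 with windows of 0.5 kb, 90 and 91 with no filter, 137 and 127 with no trend and no robust fit, and 9 to 385 and 3 to 398 without 1 library. With lists of equal peak number the limma calls on promoters were 12 and 11. For spans, where the main limma counts were 0 and 0, they were 74 and 92 with peaks joined and 42 and 62 with no filter. With no trend and no robust fit they were 58 and 73. The cause was not tested. Leaving out a library moved the covered length between -5.58% and 1.33%. With both segments included, an alternative chosen after seeing the data, it was -4.1%.

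With the replicate number as a block, limma called 4 promoters lower and 1 higher, and 0 spans either way. Same-numbered libraries deviated together with a correlation of 0.0323 over promoters and 0.0261 over spans, and the pairing was not used. A correlation over single genes cannot exclude a shift shared by whole libraries. On the other autosomes replicate 1 was longer than replicate 2 in each genotype (WT: 242.67 against 231.96 Mb, KO: 240.48 against 224.07 Mb). In each same-numbered pair the KO list was the shorter. Both orders also held in each segment, so a batch shared by number remains possible.

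With peaks joined, 3 genes changed direction, namely the promoters of Nobox (-7.58) and Wnt8b (-4.33) and the span of Krt16 (2.0). Of the other values for single promoters, 1076 kept their direction and side of the rule, 28 passed it newly and 109 no longer did. Each value is 1 promoter under 1 setting, so these are not counts of promoters. Of all calls, 15 of 266 lower and 13 of 311 higher ones held under all 5 settings of peaks and windows. The values of the classes were recomputed under these settings as an alternative chosen after seeing the data. The depth of the libraries is unknown, so no interval could be given for a missing peak.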
